A study of Homo sapiens with 346 samples.

Results

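A set of 10 genes that mark the epithelium of the intestine was followed through 334 single-cell libraries: the transcription factors CDX1 and CDX2, the structural proteins VIL1 and KRT20, the surface and adhesion proteins CDH17, LGALS4, CEACAM5, CEACAM6 and GPA33, and the small epithelial protein PHGR1. The genes were chosen by name, and their levels were read wherever the gene table of a line held a row for them. Of the 10 genes, 8 had a row in at least one table. The HCT-116 table, with 28806 genes, held 5 of them (CDX2, CDH17, CEACAM5, GPA33 and KRT20), and the HepG2 table, with 29551 genes, held 7 (CDX2, VIL1, CDH17, LGALS4, CEACAM5, CEACAM6 and KRT20). CDX1 and PHGR1 were not analysed here, and neither were VIL1, LGALS4 and CEACAM6 in HCT-116 nor GPA33 in the HepG2-labelled line.

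HCT-116 cells derive from a colorectal carcinoma of a human donor, and HepG2 is the name of a line from a human liver tumour. Each line was sequenced live and after fixation in 80% methanol with storage for 1 week, with full-length Smart-seq2 libraries made from sorted cells. The tables held 91 live and 92 fixed HCT-116 cells, and 68 live and 83 fixed cells labelled HepG2. Fixed and live cells of a line came from a split culture, but the fixed libraries were made after storage, so fixation and library batch cannot be told apart. The HepG2 cells came from a pair of separate experiments that the labels do not distinguish. No label names a separate culture, so each line and treatment counted as 1 sample: no test was possible between groups, SDs are over cells, and intervals are exact (Clopper-Pearson) 95% binomial intervals that cover counting error only. Where no cell had a gene, the share allowed is given instead as 3 cells of the total, a simpler limit that lies below the upper end of the exact interval.

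Epithelial cells of the intestine take their identity from the caudal homeobox factors CDX1 and CDX2, which bind and switch on many genes of the enterocyte. Among such genes are villin, which bundles the actin of microvilli, and the adhesion molecules CDH17 (liver-intestine cadherin) and GPA33 (A33 antigen). CEACAM5, the carcinoembryonic antigen used as a serum marker in colorectal cancer, and its close relative CEACAM6 are glycoproteins held in the membrane by a lipid anchor, and both also occur in other epithelia and their tumours.

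Estimated from the transcript tables in mega-reads (M), the depth of HCT-116 cells ranged from 0.7 to 5.3 M when live (median 2.5 M) and from 0.2 to 4.9 M when fixed (median 1.8 M). For HepG2-labelled cells it ranged from 1.5 to 3.7 M (median 2.4 M) and from 1.0 to 2.8 M (median 2.0 M). Genes of ribosomal RNA held a median of 24.6% of the TPM of a live HCT-116 cell and 7.60% in a fixed one, against 5.72% and 2.39% in the HepG2-labelled line. Among the HepG2-labelled columns, 1 live column was equal in every gene to 1 fixed column. A further 6 fixed columns each correlated above 0.95 with another fixed column in ln(TPM + 1), with a median of 16114 genes above 0 against 12293 over all fixed cells. The fold differences and shares of cells of this line were therefore also computed without those columns.

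Both lines carried the keratins and junction genes of a simple epithelium. EPCAM, an adhesion protein of epithelia, averaged 306 TPM in live HCT-116 and 234 TPM in live HepG2-labelled cells, and all 15 listed genes of a simple epithelial list of 16 reached a mean of 1 TPM in HCT-116. The hepatocyte markers were close to absent from the HepG2-labelled cells. Of 19 hepatocyte genes, 11 had a row, 1 averaged at least 1 TPM in live cells and none had a TPM above 1 in at least 50% of the cells. The highest, the protease inhibitor SERPINA1, averaged 2.27 ± 6.06 TPM over 68 live cells and 3.95 ± 11.4 TPM over 83 fixed ones. The plasma proteins TTR and APOA1 averaged 0.08 and 0.09 TPM in live cells. Of 16 genes that mark luminal breast epithelium, 15 averaged at least 1 TPM in live HepG2-labelled cells against 4 in live HCT-116 cells. The label HepG2 is therefore used here only as the name of the samples, and no other identity is given to them.

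The promoters of CEACAM5 and CEACAM6 are shown because these neighbouring genes gave the largest differences of the members between fixed and live cells. Both lie on the plus strand of chromosome 19 in GRCh38.p14, CEACAM5 at 41708626 to 41730519 and CEACAM6 at 41755530 to 41772211, with 25010 bases and no other annotated gene between them. The 250 bases before each start, from RefSeq, are written 5′ to 3′, with the palindromic E-box CACGTG in capitals. The CEACAM5 window is chr19:41708376-41708625 and the CEACAM6 window is chr19:41755280-41755529.
CEACAM5: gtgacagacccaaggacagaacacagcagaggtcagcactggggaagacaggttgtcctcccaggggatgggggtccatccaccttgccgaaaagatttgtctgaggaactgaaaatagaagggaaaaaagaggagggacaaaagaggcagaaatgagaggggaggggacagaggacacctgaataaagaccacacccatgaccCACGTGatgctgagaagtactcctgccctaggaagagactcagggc
CEACAM6: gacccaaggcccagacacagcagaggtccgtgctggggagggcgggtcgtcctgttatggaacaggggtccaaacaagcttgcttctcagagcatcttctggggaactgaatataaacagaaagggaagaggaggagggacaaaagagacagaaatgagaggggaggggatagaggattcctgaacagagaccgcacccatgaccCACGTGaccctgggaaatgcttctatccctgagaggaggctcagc
The CACGTG stretch began 46 bases before the CEACAM5 start and 45 bases before the CEACAM6 start. A global alignment of the windows gave 190 identical bases of 242 aligned (78.5%), with 16 gap positions. CACGTG, which reads the same on both strands, was found in 6.34% of the 35116 promoter windows of this length in the table. A match is a description of the letters and not of a bound site. The kinship of the genes also bears on their counts: reads that both transcripts share were divided between them by the authors' quantification, so a low level of one in a cell with a high level of the other is uncertain.

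CDX2 was the member found in most HCT-116 cells. This factor (chromosome 13, 27960918 to 27969315, minus strand) had a mean of 7.47 ± 5.83 TPM over 91 live cells and of 5.44 ± 6.19 TPM over 92 fixed cells. In live cells the lowest, median and highest values were 0, 7.14 and 22.7 TPM, and in fixed cells they were 0, 3.75 and 23.1 TPM. The ranges overlapped in full, and on the TPM scale as deposited the groups differed mainly in the number of cells at 0. CDX2 was above 0 in 74 of 91 live cells (81.3%, interval 71.8 to 88.7%) and in 56 of 92 fixed cells (60.9%, 50.1 to 70.9%). Among the cells with CDX2, the median was 7.81 TPM before and 7.98 TPM after fixation. In the cells where it was above 0, a median of 33.5 estimated reads lay behind the live values and 23.6 behind the fixed ones.

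The log2 ratio of mean TPM, fixed over live, was −0.46 for CDX2, while the median over the 11813 genes with a mean of at least 1 TPM was 0.17. Leaving out ribosomal RNA genes moved that median to −0.16 and CDX2 to −0.77. Rescaling by the median ratio moved them to −0.03 and −0.64, so CDX2 lay below the median of all genes under each of these 3 scalings. The share of cells above 0 was 20.4 percentage points lower in fixed than in live cells for CDX2, against a median of 5.36 points over the same genes (quartiles 1.05 and 12.98). Those genes had a median share of 92.3% in live cells, above the 81.3% of CDX2, and genes of a like share were not compared. Thinning each cell to 500000 reads left a share of 79.1% of 91 live and 53.9% of 89 fixed cells, with 3 shallower fixed cells left out. Thinning used the reads of matched transcript rows, which before it were above 0 in 74 live and 54 fixed cells. In 53 pairs of cells with equal total reads, the log2 ratio was −0.56. The parts of fixation and of library batch in the lower share cannot be told apart.

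CDX2 in the HepG2-labelled line was above 0 in 1 of 68 live cells, at 0.69 TPM, and in 0 of 83 fixed cells, which allows a share of up to 3.61%. Almost all of the CDX2 signal in HCT-116 came from 1 of 5 transcripts, NM_001265.4, with 97.8% of the gene's mean CPM (reads scaled to the total of the cell) in live and 99.1% in fixed cells. The level of CDX2 followed the depth of a cell weakly, with a Pearson coefficient between log2(TPM + 1) and total reads of 0.12 over 91 live and −0.01 over 92 fixed cells. With the number of genes above 0 in a cell, the coefficients were 0.25 and 0.06.

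**Figure D1:**
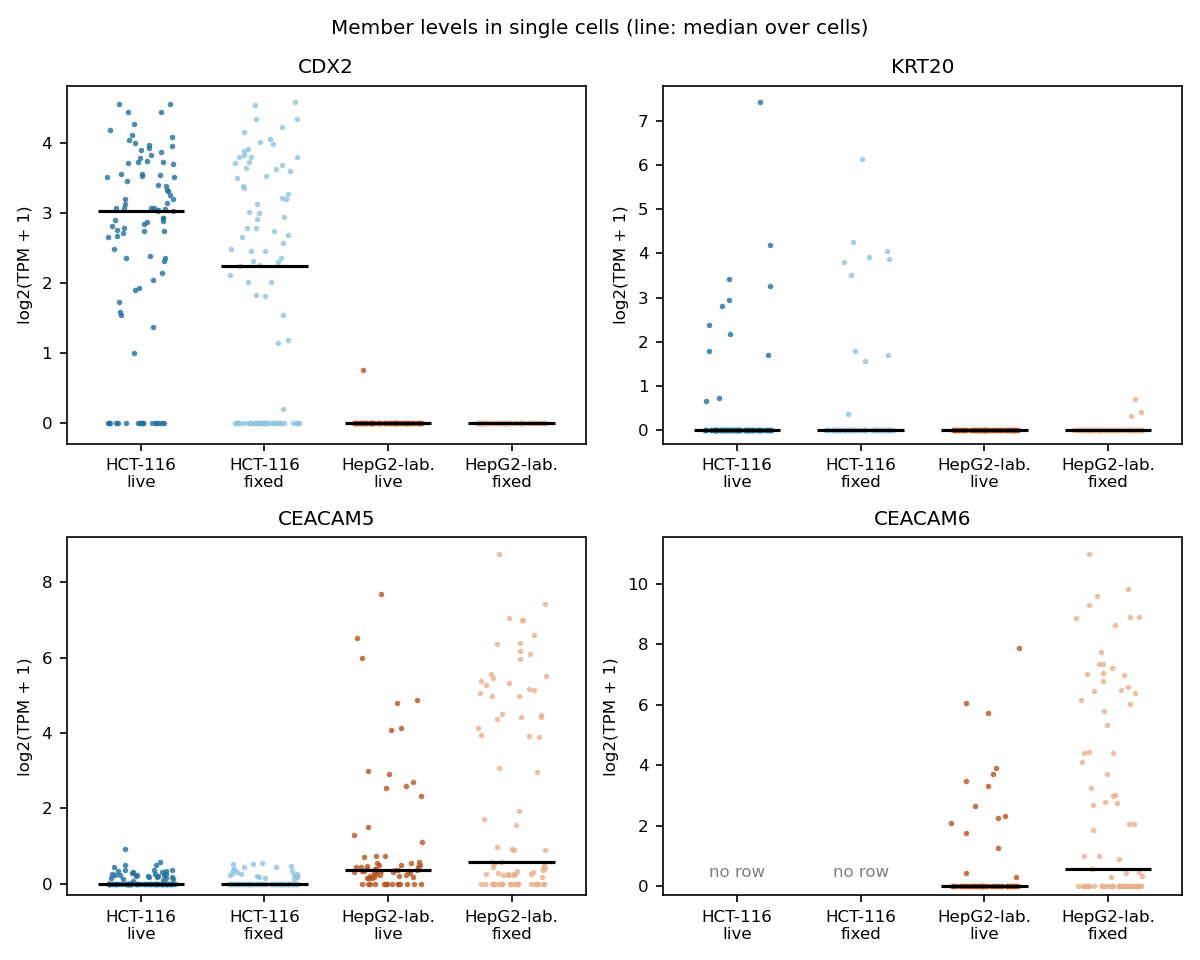
Each point is 1 cell, the vertical axis is log2(TPM + 1), and the line is the median over cells of HCT-116 and the HepG2-labelled line, live and fixed. CDX2 fills a continuous range in HCT-116 with cells at 0 below it (17 live and 36 fixed), KRT20 is above 0 in few HCT-116 cells, and CEACAM5 and CEACAM6 spread to 430 and 2038 TPM in fixed HepG2-labelled cells.

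KRT20, the keratin of differentiated enterocytes and goblet cells, was the other member above 1 TPM in HCT-116, and it was carried by few cells. It was above 0 in 12 of 91 live cells (13.2%, 7.004 to 21.9%) and in 11 of 92 fixed cells (11.96%, 6.12 to 20.4%). The live mean was 2.54 ± 17.8 TPM and the fixed mean 1.74 ± 7.92 TPM, the median was 0 in both, and the highest cells had 169.1 and 68.9 TPM. The highest live cell alone held 73.2% of the summed KRT20 of its group, from 770 estimated reads, and the highest fixed cell held 42.95%, from 266 reads. The log2 ratio of fixed over live was −0.54 with all cells and 0.55 without the highest cell of each group, so its direction rested on 1 live cell. The shares of cells differed by 1.23 percentage points, well within their intervals.

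KRT20 and CDX2 did not mark separate cells. Of the cells with KRT20, 10 of 12 live and 9 of 11 fixed cells also had CDX2, against 81.01% of 79 live and 58.02% of 81 fixed cells without KRT20. The highest KRT20 cell had 15.04 TPM of CDX2 in the live and 5.33 TPM in the fixed group. Pearson coefficients between the log2 values of both genes were 0.03 in live and 0.07 in fixed cells. KRT20 in the HepG2-labelled line was above 0 in 0 of 68 live cells, which allows up to 4.41%, and in 3 of 83 fixed cells, at no more than 0.63 TPM and 1 estimated read each. All 3 of those cells were among the 6 very similar columns.

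VIL1, GPA33 and LGALS4, each with a row in 1 of the lines, were at or near 0 in nearly all cells of that line. VIL1 was above 0 in 2 of 68 live HepG2-labelled cells, with 5.61 and 0.81 TPM, and in 0 of 83 fixed cells. GPA33 was above 0 in 0 of 91 live HCT-116 cells, which allows up to 3.30%, and in 1 of 92 fixed cells, at 3.59 TPM from 7 estimated reads. LGALS4, a galectin of the gut epithelium that binds sugars of the cell surface, was above 0 in 4 live and 4 fixed HepG2-labelled cells, at up to 11.8 and 10.5 TPM. In each of these genes a few single cells held all of the signal.

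CDH17 differed in pattern: it was spread thinly over many cells of both lines. It was above 0 in 21 of 91 live and 10 of 92 fixed HCT-116 cells, and in 26 of 68 live and 13 of 83 fixed HepG2-labelled cells, but above 1 TPM in only 1 cell of live HCT-116 and 1 cell of fixed HepG2-labelled cells. The means were 0.06, 0.03, 0.11 and 0.05 TPM in that order. The intervals of the live and fixed shares overlapped in HCT-116 (14.9 to 33.1% and 5.34 to 19.1%) and lay apart in the HepG2-labelled line (26.7 to 50.8% and 8.61 to 25.3%). No transcript row matched CDH17, so no read number stands behind these values, and levels this low were not read as expression. Fixed cells of both lines also had a lower median depth, and the lower shares of CDH17 were not read as a change with fixation.

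CEACAM5 showed such a trace in HCT-116 and a different pattern in the HepG2-labelled line. In HCT-116 it was above 0 in 32 of 91 live and 21 of 92 fixed cells, at no more than 0.91 and 0.47 TPM, with means of 0.08 ± 0.15 and 0.06 ± 0.12 TPM. A median of about 1 estimated read lay behind a value above 0. Reads of the matched transcript rows, which the thinning used, were above 0 in only 27 of the 32 live and 14 of the 21 fixed cells. Thinning to 500000 reads left 8.79% of live and 3.37% of fixed cells, a fall that includes the cells without matched reads. CEACAM5 had 2 transcripts with a row in HCT-116 and 4 in the HepG2-labelled line. Of the 2 in HCT-116, NM_001291484.2 held 99.9% of the mean CPM in live and fixed cells. In the HepG2-labelled line that transcript held 14.2% of the mean CPM in live and 3.995% in fixed cells, while NM_001308398.1 held 59.1% and 61.4%, and NM_004363.5 held 24.9% and 32.5%. NM_001308398.1 had no row in HCT-116, so these shares do not compare the use of transcripts between the lines.

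**Figure D2:**
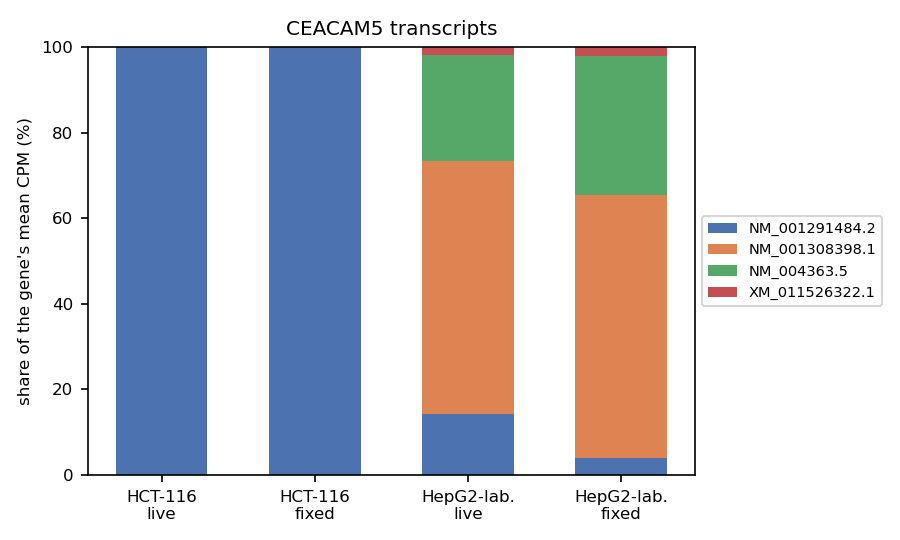
Stacked bars give the share (%) of the mean CPM of CEACAM5 that was assigned to each of its RefSeq transcripts with a row in live and fixed cells of each line. The rows were 2 in HCT-116 and 4 in the HepG2-labelled line. NM_001291484.2 fills the HCT-116 bars, from a mean of 0.18 CPM in live and 0.10 CPM in fixed cells. NM_001308398.1, which had no row in HCT-116, is the largest part in the HepG2-labelled bars, from 7.94 CPM in live and 19.3 CPM in fixed cells.

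CEACAM5 in the HepG2-labelled line had a mean of 7.32 ± 28.3 TPM over 68 live and of 24.7 ± 57.2 TPM over 83 fixed cells, a ratio of 3.38 (log2 1.76). The lowest, median and highest values were 0, 0.28 and 207 TPM in live cells and 0, 0.48 and 430 TPM in fixed cells. Most cells of both groups thus had little or no CEACAM5, and the difference lay in a tail of high cells. CEACAM5 was above 10 TPM in 7 live cells (10.3%, 4.24 to 20.1%) and in 31 fixed cells (37.3%, 26.97 to 48.7%). Counted above 0, the order was the opposite, with 54 of 68 live (79.4%) and 60 of 83 fixed cells (72.3%), and thinning to 500000 reads gave 42.6% and 45.8%. The matched reads used for thinning were above 0 in 53 live and 54 fixed cells. The 5 highest cells held 83.6% of the summed level in live and 47.9% in fixed cells.

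CEACAM6 gave the largest difference between fixed and live cells of the members at 1 TPM or more. Its mean was 6.19 ± 30.3 TPM over 68 live and 97.4 ± 276 TPM over 83 fixed HepG2-labelled cells, a ratio of 15.7 (log2 3.98). The lowest, median and highest values were 0, 0 and 237 TPM in live cells and 0, 0.48 and 2038 TPM in fixed cells. It was above 0 in 15 live cells (22.1%, 12.9 to 33.8%) and in 46 fixed cells (55.4%, 44.1 to 66.3%), and above 10 TPM in 6 live (8.82%) and 29 fixed cells (34.9%). Thinning to 500000 reads left the shares at 19.1% and 50.6%. The values overlapped, since 37 fixed cells were at 0 and 8 fixed cells exceeded the highest live cell.

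Both CEACAM genes passed 2-fold in the fixed direction, and 4.89% of the 12486 genes tested were called higher in fixed HepG2-labelled cells. The median log2 ratio over those genes was 0.15. Without the equal and very similar columns the ratios were 3.12 for CEACAM5 and 15.5 for CEACAM6 (76 fixed and 67 live cells). The 6 similar fixed cells had 34.3 to 67.004 TPM of CEACAM5 and 83.3 to 146.8 TPM of CEACAM6. Without the highest cell of each gene in each group the ratios were 4.57 and 26.9, and in 38 pairs of cells with equal total reads they were 12.3 and 17.3. The pairs left out live cells deeper than the deepest fixed cell (2.8 M), among them the live cell with the highest CEACAM5 (207 TPM, 3.3 M). CEACAM5 averaged 3.12 TPM in the paired live and 38.2 TPM in the paired fixed cells, against 7.32 and 24.7 TPM over all cells. Its higher ratio in the pairs thus went with the cells chosen. A difference in the mix of cells that the 2 experiments gave to the live and fixed groups cannot be told apart from fixation.

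Cells with one of these genes often had the other. Of the 13 live cells with CEACAM6 above 1 TPM, 10 also had CEACAM5 above 1 TPM (76.9%), against 10.9% of the other 55 live cells. In fixed cells 30 of 39 had both (76.9%), against 13.6% of the other 44. The median CEACAM5 level was 32.1 TPM in fixed cells with CEACAM6 and 0.18 TPM in the rest. Pearson coefficients between the log2(TPM + 1) values were 0.64 over 68 live and 0.66 over 83 fixed cells, and 0.64 and 0.61 without the equal and similar columns. These points share a library, and reads common to both genes could have been split between them. Both genes also went with the number of genes above 0 in a cell. Those coefficients were 0.44 for CEACAM5 and 0.28 for CEACAM6 over fixed cells, and 0.21 and 0.23 over live cells. The fixed values include the 6 very similar columns, which had many genes above 0 (median 16114) and high levels of both CEACAM genes. They were not computed without those columns. Among the cells with both genes above 1 TPM, CEACAM6 had the higher TPM in 4 of 10 live and 20 of 30 fixed cells.

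**Figure D3:**
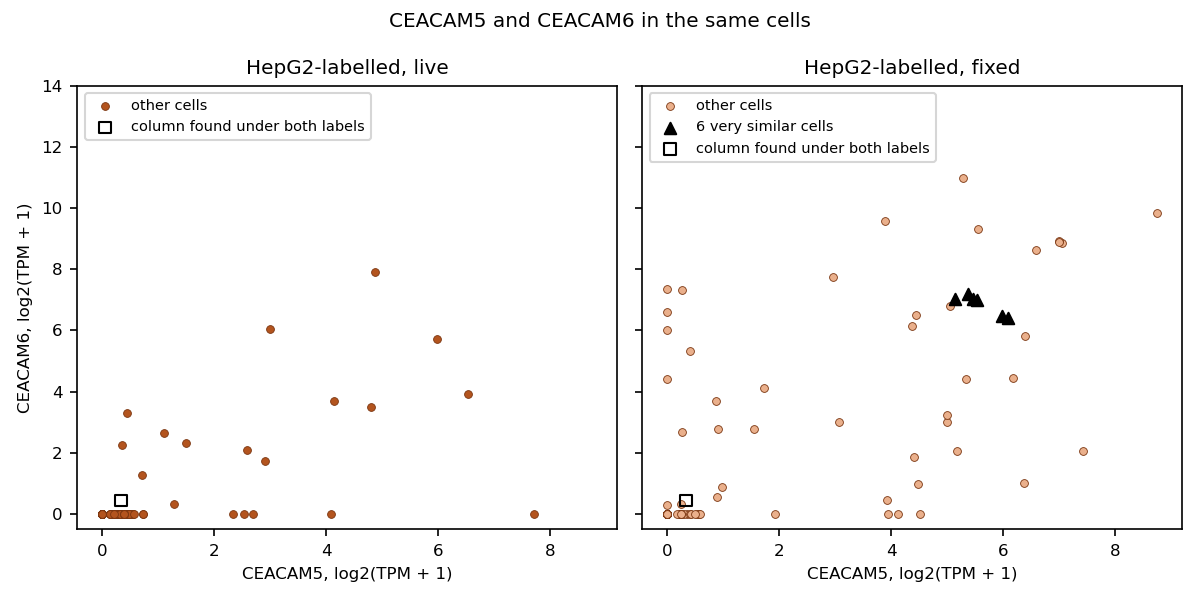
Each point is 1 HepG2-labelled cell, with log2(TPM + 1) of CEACAM5 on the horizontal and of CEACAM6 on the vertical axis. Triangles are the 6 very similar fixed cells, and squares mark the column found under both labels. High cells of one gene tend to be high in the other (Pearson 0.64 in live and 0.66 in fixed cells), and 4 fixed cells lie above 10 TPM in CEACAM6 and at 0 in CEACAM5.

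Genes whose levels went with CEACAM5 or CEACAM6 over HepG2-labelled cells were looked up after the values had been seen. Among 12179 genes with a mean of at least 1 TPM, the highest coefficients with CEACAM6 over fixed cells were those of CEACAM5 (0.66), of the TEAD cofactor VGLL1 (0.63) and of BCAS1 (0.59). In live cells the coefficients were 0.64, 0.12 and 0.51. With CEACAM5 over fixed cells, RNF128 (0.67) stood above CEACAM6 (0.66) and OAS1 (0.60), and their live coefficients were 0.25, 0.64 and 0.17. Over live cells CEACAM6 (0.64), MALL (0.61) and H19 (0.58) stood closest to CEACAM5, with fixed coefficients of 0.66, 0.29 and 0.33. Without the equal and very similar columns, the fixed coefficients with CEACAM6 were 0.61 for CEACAM5, 0.60 for VGLL1 and 0.57 for BCAS1. Those with CEACAM5 were then 0.65 for RNF128, 0.54 for OAS1, 0.22 for MALL and 0.26 for H19. BCAS1 averaged 59.9 ± 90.03 TPM over fixed and 46.1 ± 97.2 TPM over live cells. For CDX2 the 3 genes closest over the 91 live HCT-116 cells, among 11805, were PEF1 (0.43), PRNP (0.42) and SUV39H1 (0.42). Over the 92 fixed cells their coefficients were −0.05, 0.07 and 0.07. Since the 3 were picked as the highest over live cells, lower coefficients in other cells can follow from the picking alone. The same holds for the genes picked for CEACAM5 and CEACAM6 over fixed or live cells.

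The number of members found in a cell was small. At most 4 of the listed members were above 0 in any cell. Above 1 TPM, 68 of 91 live HCT-116 cells had 1 member and 8 had 2, and of the fixed cells 48 had 1 and 9 had 2. In the HepG2-labelled line 11 live cells had 1 member above 1 TPM and 11 had 2, against 15 and 30 of the fixed cells, of which 1 more had 3. CDX2 was the only member above 0 in at least 50% of HCT-116 cells, live or fixed, where 38.8% and 33.8% of all listed genes passed that mark. CEACAM5 passed it in live HepG2-labelled cells (45.4% of all genes), and CEACAM5 and CEACAM6 passed it in fixed ones (38.5%). Above 1 TPM only CDX2 did so, in both HCT-116 groups.

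**Figure D4:**
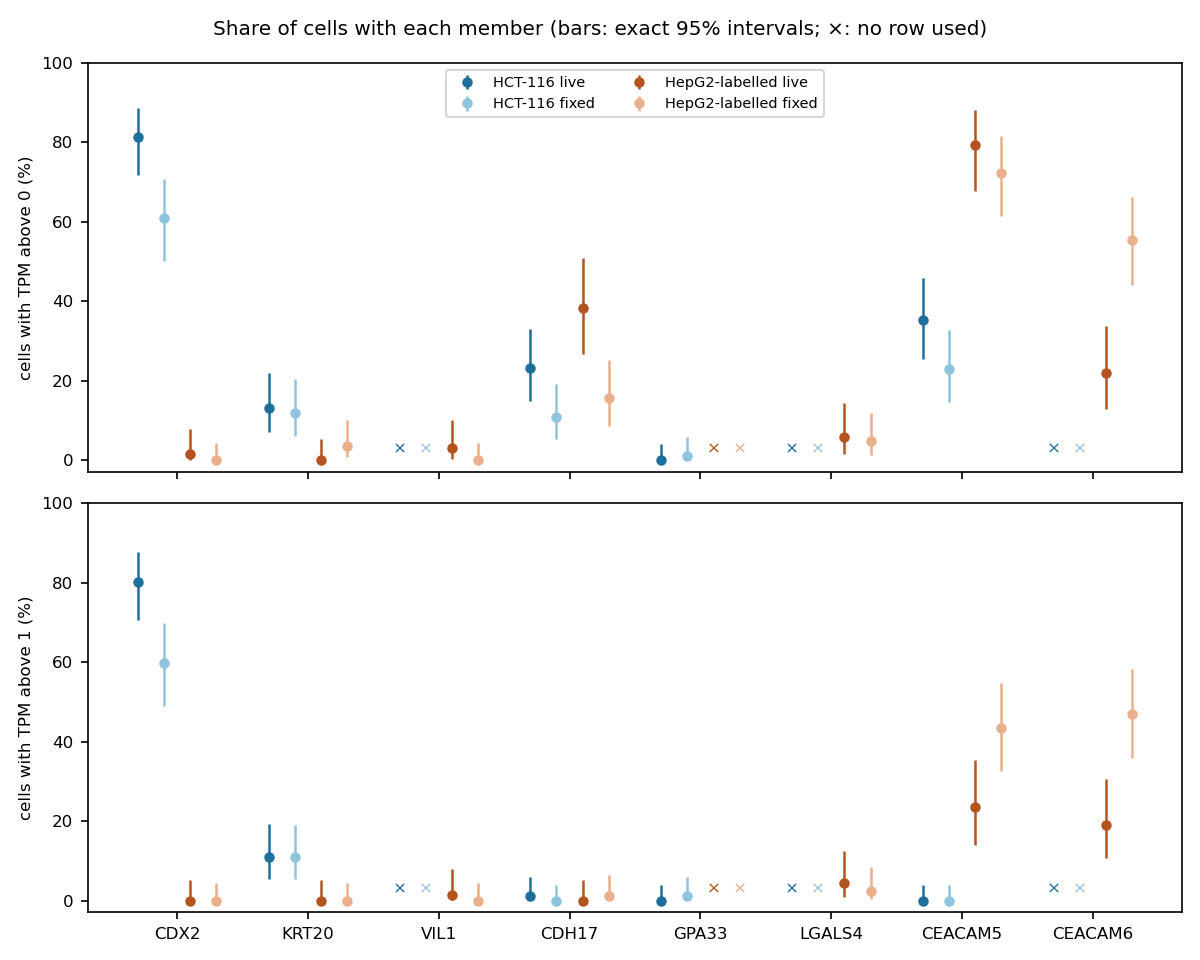
Points give the share of cells (%) with a TPM above 0 (upper panel) and above 1 (lower panel) for each member in the 4 groups, bars give exact 95% intervals, and a cross marks a gene with no row used. CDX2 is above 0 in 81.3% of live and 60.9% of fixed HCT-116 cells, CDH17 and the HCT-116 trace of CEACAM5 almost vanish above 1 TPM, and CEACAM6 reaches 55.4% above 0 in fixed HepG2-labelled cells.

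Between fixed and live HCT-116 cells, CDX2 and KRT20 passed the filter of a mean of 1 TPM, and neither differed by 2-fold. Over all genes tested 8.84% were lower and 2.99% higher in fixed cells by that rule, and 14.8% and 1.67% when ribosomal RNA genes were left out. In the HepG2-labelled line CEACAM5 and CEACAM6 passed the filter and none was lower by 2-fold, where 9.76% of all genes were lower. With median-ratio rescaling 12.9% of all genes were lower and 2.65% higher in that line.

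**Figure D5:**
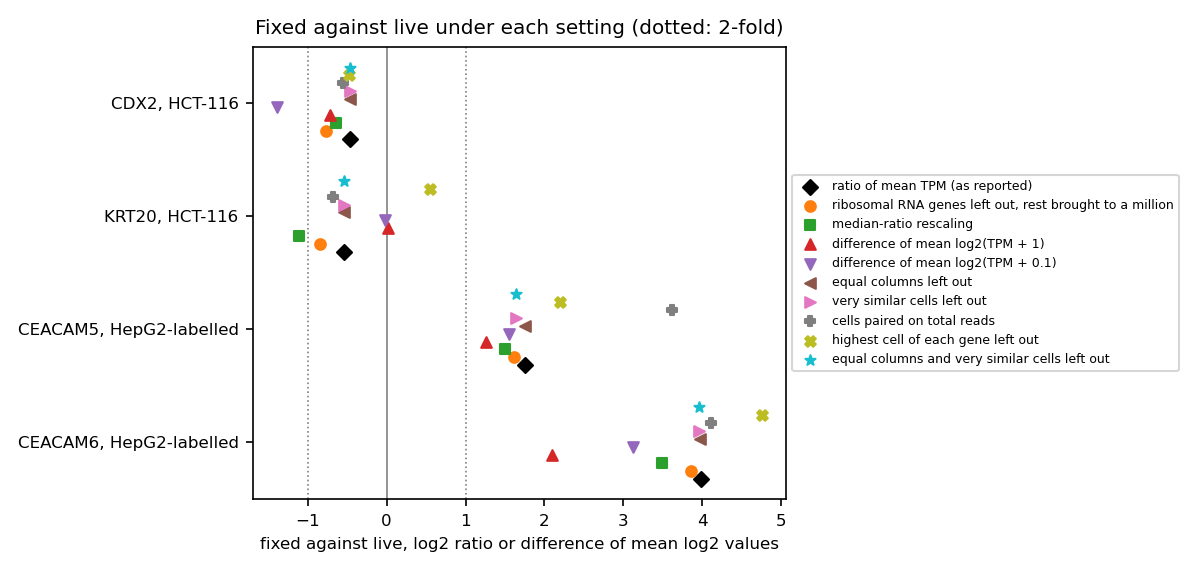
Points give the fixed against live difference on the log2 scale for CDX2 and KRT20 in HCT-116 and for CEACAM5 and CEACAM6 in the HepG2-labelled line, under the reported ratio of means and each other setting, with dotted lines at 2-fold. CDX2 stays below 0 (−1.38 to −0.46), KRT20 lies on both sides of 0 (−1.10 to 0.55), and CEACAM5 (1.26 to 3.62) and CEACAM6 (2.09 to 4.75) stay above 1.

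Between the lines, whose separate tables list partly different genes, the members split. In live cells CDX2 and KRT20 were higher in HCT-116 and CEACAM5 was lower. Each passed the filter through the line where it was high, so the 2-fold call followed from the filter and is not read against the 18.7% of 12481 genes higher and 22% lower by 2-fold. CDX2 had 7.47 TPM against 0.01 TPM. KRT20 had 2.54 TPM against a group listed at 0, and without the highest HCT-116 cell its mean was 0.69 TPM and it no longer passed the filter. CEACAM5 had 0.08 TPM, a trace, against 7.32 TPM, and no fold is given. Its difference of mean log2(TPM + 1) was −0.96, short of 2-fold, and that of mean log2(TPM + 0.1) was −2.09. In fixed cells CDX2 was again higher in HCT-116, at 5.44 TPM against a group listed at 0, and CEACAM5 lower, at 0.06 against 24.7 TPM. Both calls again followed from the filter, and 18% of 12232 genes were higher and 22% lower. KRT20 had 1.74 against 0.01 TPM, with a mean over both groups below the filter.

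Genes related to the members were measured in both lines. Of 20 intestinal transcription factors, CDX2 among them, 14 had a row and 9 averaged at least 1 TPM in live HCT-116 cells, and none of the 9 tested differed by 2-fold between fixed and live. The epithelial ETS factors ELF3 and EHF averaged 50.5 and 16.7 TPM when live, and 44.5 and 21.04 TPM when fixed. HNF4A, a nuclear receptor of gut and liver, averaged 0.12 TPM in live HCT-116 cells. Of 20 brush border and enterocyte genes, 7 of 15 listed averaged at least 1 TPM, led by the membrane-to-actin linker EZR (670 TPM live, 608 TPM fixed), the microvillus bundler PLS1 (20.8 and 28.4 TPM) and EPS8 (25.1 and 34.7 TPM). None of the 7 tested differed by 2-fold. The median log2 ratios were 0.27 for the factors and 0.10 for the brush border genes, beside 0.17 over all genes tested. The HepG2-labelled table held 16 of the factors and 15 of the brush border genes, of which 7 and 5 averaged at least 1 TPM in live cells. ELF3 averaged 76.8 TPM live and 54.8 TPM fixed there, EZR 65.6 and 44.5 TPM, and PLS1 12.6 and 14.7 TPM. Of 8 factors tested in that line 1 was lower and 1 higher by 2-fold in fixed cells, and of 5 brush border genes 1 was higher, with medians of 0.12 and 0.22 beside 0.15 over all genes.

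Of 11 goblet cell genes, 7 had a row in HCT-116 and none averaged 1 TPM there. In the HepG2-labelled line 10 had a row and 7 averaged at least 1 TPM in live cells. The secreted trefoil peptide TFF1 averaged 2046 TPM live and 3551 TPM fixed, and the disulphide isomerase AGR2 averaged 506 and 663 TPM, against 0.01 TPM of AGR2 in live HCT-116 cells. MUC2, the gel-forming mucin that defines goblet cells, was above 0 in 0 of 68 live and 1 of 83 fixed HepG2-labelled cells. Both TFF1 and AGR2 also stand in the luminal breast list. None of the 7 goblet genes tested differed by 2-fold between fixed and live cells, with a median log2 ratio of 0.39 against 0.15 over all genes.

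Among 17 genes of intestinal surface proteins, 3 of 5 tested in the HepG2-labelled line were higher by 2-fold in fixed cells and none was lower, beside 4.89% and 9.76% of all genes. The 3 were CEACAM5 and CEACAM6, the members described above, and TSPAN1, so the list added 1 gene. In HCT-116 none of 3 tested differed. The lectin LGALS3 averaged 780 TPM live and 1247 TPM fixed in the HepG2-labelled line, and 178.3 and 245 TPM in HCT-116. The tetraspanin TSPAN1 averaged 5.30 and 12.7 TPM in the HepG2-labelled line and 15.4 and 13.9 TPM in HCT-116. Of the 10 stem cell genes, 3 were tested in each line and none differed by 2-fold between fixed and live, with median log2 ratios of 0.48 in HCT-116 and 0.33 in the HepG2-labelled line. CD44, a hyaluronan receptor, averaged 171.6 TPM live and 239 TPM fixed in HCT-116, against 14.3 and 7.48 TPM in the HepG2-labelled line. In the colonocyte and differentiation list of 14 genes, the carbonic anhydrase CA2 averaged 30.5 and 36.9 TPM in HCT-116 and 88.2 and 105.4 TPM in the HepG2-labelled line. CA12, another carbonic anhydrase, averaged 94.5 TPM live and 41.9 TPM fixed in the HepG2-labelled line, and 0.78 and 0.55 TPM in HCT-116. The keratin KRT23 averaged 8.49 TPM live and 15.8 TPM fixed in HCT-116, and 0.01 and 0.05 TPM in the HepG2-labelled line. That list had 1 of 4 tested genes lower by 2-fold in fixed HCT-116 cells, beside 8.84% of all genes, and 2 of 5 in fixed HepG2-labelled cells, beside 9.76%, and none higher. Its median log2 ratios were −0.13 and −0.89.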

How the data were processed

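Single cells of HCT-116 and of the HepG2-labelled line were sequenced by the authors with Smart-seq2, which amplifies full-length cDNA without molecular identifiers. The authors deposited gene tables in TPM, made with kallisto 0.46.0 against GRCh38 per the submitters' processing notes and summed to genes, with cells of more than 4000 genes kept. They also deposited transcript tables whose values are CPM, although they are named TPM. The total of a cell was estimated from those CPM as the multiple of 0.1 M reads that made most values whole. Since transcripts were often not whole, read numbers are estimates. TPM scale each cell on its own, and the lines have separate tables that share 26894 genes.

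Of 346 labelled cells, 334 had a column. Column names gave the line and treatment but not the labelled cell, and 0 columns were left unused. The level of a group was the mean TPM over cells, and groups were compared by the log2 ratio of means, for genes with a mean over both groups of at least 1 TPM. A gene counted as lower or higher at 2-fold. With 1 sample in each group no test was run, and intervals do not cover amplification or culture. The ratio was tested on simulated data with known folds, for genes of at least 5 TPM. That simulation did not model levels carried by a few high cells, as in KRT20, CEACAM5 and CEACAM6. Genes were named by rule: all members, genes of the other lists with a mean of at least 10 TPM in any group, and for likeness the 3 genes with the highest Pearson coefficient of log2(TPM + 1) with a member found in at least 50% of live HCT-116 cells. SERPINA1, TTR, APOA1, HNF4A and MUC2, and the likeness of CEACAM5 and CEACAM6, were added after values were seen. The members and lists were chosen with earlier results of these data known. Positions and promoters came from RefSeq (GRCh38.p14), where transcripts were matched to genes by accession. Alternatives covered scaling, pseudocount, filter, detection threshold, depth and the columns that stood apart. Python 3.11.15, pandas 2.3.3, scipy 1.17.1 and Biopython 1.88 were used.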

Additional observations from a re-analysis of the deposited data

How the results depend on the processing

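The 2 members higher by 2-fold in fixed HepG2-labelled cells, CEACAM5 and CEACAM6, were counted as 2 under 10 of 11 alternatives and as 3 with no filter on the mean, which added KRT20 at 0.01 TPM. Leaving out the highest cell of each gene, or the equal and the very similar columns together, was chosen after the data were seen. For fixed against live HCT-116, the count of members lower was 0 as reported and 1 with median-ratio rescaling (KRT20), with log2(TPM + 0.1) (CDX2) and with no filter on the mean (CDH17), and the count higher was 1 with no filter (GPA33). With no filter, 3 members were lower in fixed HepG2-labelled cells, none of them at 1 TPM. For live HCT-116 against live HepG2-labelled cells, 2 members were higher as reported, but 1 with log2(TPM + 1), with log2(TPM + 0.1), in cells paired on reads and without the highest cell of each gene, the one lost each time being KRT20, and 0 with a mean of at least 5 TPM, where no member passed. The 1 member lower there became 0 with log2(TPM + 1) and with that filter. Between fixed cells of the lines, 1 member was higher as reported, 2 with no filter and 0 with a mean of at least 5 TPM. Of the members in at least 50% of the cells, the 1 of fixed HCT-116 became 0 above 5 TPM. The 1 of live HepG2-labelled cells became 0 above 1 TPM, above 5 TPM and at 500000 reads, and the 2 of fixed ones became 0, 0 and 1. Of the single values, 32 log2 ratios and 34 shares moved by more than the spread over cells or the counting interval, and 91 and 82 moved by less or not at all. Some of the latter could not move. HCT-116 had no equal or very similar columns, and live HepG2-labelled cells had no very similar ones, so leaving such columns out repeated their reported values. The causes of the moves that occurred were not tested. Depth limits what a value of 0 says: with 1 or a few reads behind a value, presence in a cell depended on how deeply it was sequenced. No paired analysis was possible because each line and treatment was 1 sample.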
